A study of Gallus gallus with 36 samples.

Results

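The transducin subunits examined here are the G protein beta subunits GNB3 and GNB1, which the deposited table holds as 5 transcripts of 2 genes, among 17934 genes in all. They were chosen as every transcript row whose deposited gene name is one of 6 transducin subunit names. GNAT1, GNAT2, GNGT1 and GNGT2 matched no row by name and are not analysed here. GNB3 was chosen by the difference of its rhythm between the tissues, the strongest of the set, so its values over the day are given as a description with no test. GNB1, the level of GNB3 averaged over the day and the share of each gene were not used to choose the members in that way.

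RNA was sequenced from pineal glands and retinas of chickens (Gallus gallus, obtained from Hyline at 1 day of age), with 3 libraries for each tissue at circadian times (CT) 0, 4, 8, 12, 16 and 20 h, 36 in all. The birds had lived under 12 h of light and 12 h of darkness for 9 days and were then kept in constant darkness from day 10, when sampling began at CT0, the start of the subjective day. Each pineal library pooled 3 glands and each retinal library came from 1 retina. No genotype, drug or light treatment separated the groups. The question of the design was which transcripts follow a circadian rhythm in each tissue.

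Transducin is the G protein of vertebrate photoreceptors. A photoactivated opsin makes its alpha subunit exchange GDP for GTP, and the alpha subunit then leaves the beta-gamma pair and activates a cyclic GMP phosphodiesterase, so that cyclic nucleotide-gated channels close. In mammals rods use GNB1 and cones use GNB3 as the beta subunit, and beta-gamma is held by phosducin when it is free of the alpha subunit. The chicken pineal gland contains photoreceptive pinealocytes with their own clock, which make melatonin at night.

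The libraries held 6583163 to 9434608 estimated counts in the pineal gland and 4994388 to 8122277 in the retina. The tissue labels fit the markers. TPH1, the first enzyme of serotonin and melatonin synthesis, had 5680.3 to 29614 CPM (estimated counts scaled to the library size) in the pineal gland and 34.2 to 188 in the retina. The 9 cone markers of 12 present in the table summed to 3247 to 5206 CPM in the retina and 415 to 529 in the pineal gland. RXRG, a member of that list, went the other way, with 147 to 315 CPM in the pineal gland and 122 to 185 in the retina. Pineal CT12 replicates 1 and 3 and pineal CT20 replicate 1 stood apart from the other pineal libraries, with 997, 1350 and 1550 CPM of transthyretin (TTR) against 23400 to 44300 in the other pineal libraries. All tests below are edgeR quasi-likelihood tests with Benjamini-Hochberg adjustment over every transcript tested, called at an adjusted p under 0.05, unless another test is named. The labels do not state whether the 3 libraries of a group were taken from different birds. A p-value therefore covers the spread among libraries alone, and part of that may be technical. In whole tissue, fewer cells of a type and less RNA per cell cannot be told apart.

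GNB3 (transcript GNB3-201, ENSGALT00000023410, chromosome 1, 80401456 to 80410938 in the deposited coordinates, genome build not given in the sources used here) was high and nearly level over the day in the retina, and low with a large day-night swing in the pineal gland. The 3 pineal libraries held 131, 120.5 and 119 CPM at CT0, then 45.0, 40.7 and 40.2 at CT4. They held 49.1, 54.0 and 47.0 CPM at CT8 and 139, 112 and 84.3 at CT12. They held 319.8, 284 and 276 CPM at CT16 and 294, 268 and 265 at CT20. The 6 libraries of the subjective night (CT16 and CT20) were all above the 6 of the middle of the subjective day (CT4 and CT8), and the lowest night library had several times the level of the highest day library. Of all transcripts tested in the pineal gland, 3.68% had all 6 night libraries above all 6 day libraries.

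The pineal mean at CT4 was 0.340 times that at CT0, the mean at CT12 was 2.24 times that at CT8, and the mean at CT16 was 2.62 times that at CT12. It then differed little between CT16 (293 ± 23.2 CPM, SD, n = 3) and CT20 (275 ± 15.8 CPM, SD, n = 3), whose libraries overlapped, and the mean at CT0 was 0.449 times that at CT20. The mean at CT16 was 6.99 times that at CT4 (42.0 ± 2.60 CPM, SD, n = 3). In rising order the times were CT4, CT8, CT12, CT0, CT20 and CT16. Libraries of neighbouring times in that order overlapped only for CT12 with CT0 and for CT20 with CT16. The replicate spread was widest at CT12, on the rising limb, with a coefficient of variation of 24.7% against 5.12% to 7.92% at the other times. The CT12 libraries with the highest and the lowest GNB3, replicates 1 and 3, were both low in TTR. The part of this in the spread was not tested. A 24 h curve fitted to log2 CPM had an amplitude (mean to peak) of 1.52 ± 0.06 (SE) and a peak at CT17.99 ± 0.16 h (SE), which is an 8.23-fold range from trough to peak. The night-minus-day difference was 2.64 ± 0.10 (log2, SE).

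In the retina the 3 GNB3 libraries held 1985, 1976 and 1819 CPM at CT0 and 2216, 1913 and 2241 at CT4. They held 2254, 2244 and 2262 CPM at CT8 and 2181, 2238 and 2209.8 at CT12. They held 2078, 2185 and 2261 CPM at CT16 and 2189, 2237 and 2168 at CT20. The CT0 libraries were low and those from CT8 on lay close together, with the mean at CT8 1.17 times that at CT0. The fitted amplitude was 0.08 ± 0.03 (log2, SE) with a peak at CT11.96 ± 1.22 h (SE). The highest of the 18 retinal libraries had 1.24 times the level of the lowest, against 7.95 times in the pineal gland.

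**Figure D1:**
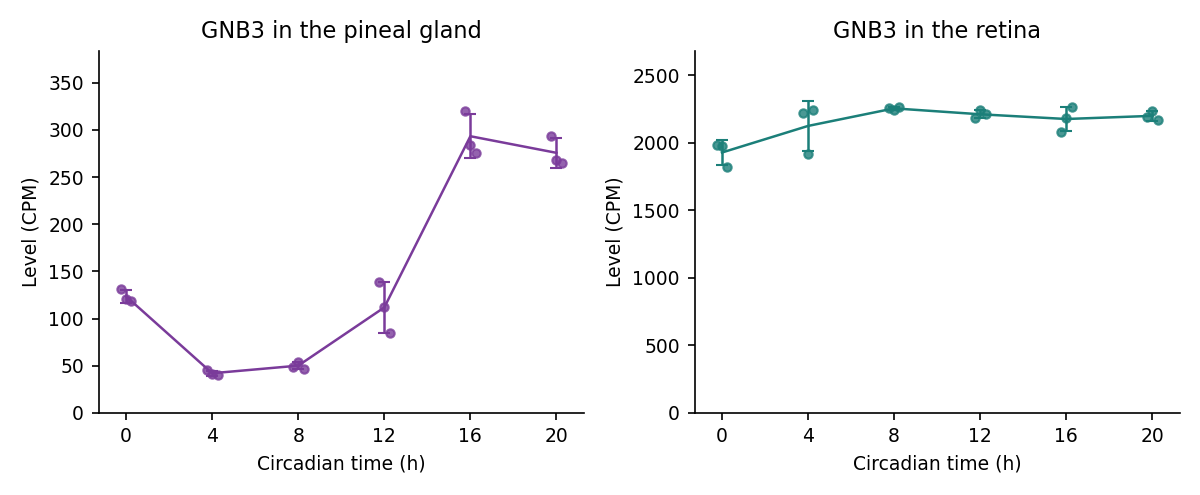
GNB3 level in CPM (y axis from 0, on a different scale in each panel) against circadian time in hours (x axis) in the pineal gland and the retina. Points are libraries and the line and bars are the mean ± SD of the 3 libraries at each time. The pineal means run from 42.0 CPM at CT4 to 293 at CT16, while the retinal means stay between 1927 and 2253.

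Averaged over the 6 times, GNB3 was 18.6-fold lower in the pineal gland than in the retina (log2 difference -4.22 ± 0.05, SE, adjusted p = 3.4e-32, edgeR). This comparison did not use the difference in rhythm. All 18 pineal libraries (40.2 to 319.8 CPM, median 119.9) lay below all 18 retinal libraries (1819 to 2262 CPM, median 2199), a separation that 20.3% of all transcripts tested showed in the same direction. A tissue difference in either direction was called for 82.7% of the transcripts, and a lower level in the pineal gland for 39.5%, so that passing this test was common in these data. The gap between the tissues changed with the time of day. Pineal GNB3 was 1.98% of the retinal level at CT4, 2.22% at CT8, 5.06% at CT12, 13.5% at CT16, 12.5% at CT20 and 6.41% at CT0. By mean FPKM (fragments scaled to transcript length and library size), GNB3 ranked 84 among all transcripts in the retina and 1183 in the pineal gland.

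Markers of cones were measured in the same pineal libraries. Their summed level was 471 to 507 CPM at CT4, 488 to 517 at CT8, 464 to 484 at CT16 and 465 to 512 at CT20. The range at CT16 overlapped that at CT4 but lay below that at CT8, and the range at CT20 overlapped those at CT4 and CT8. The members did not move together. Summed over its transcripts, RXRG went from 197 ± 9.87 CPM at CT4 to 272 ± 16.0 at CT16 (SD, n = 3). CNGB3 went from 119 ± 17.7 to 39.8 ± 3.61 (SD, n = 3), so the sum does not describe each marker. The part of cone-like cells in the GNB3 rhythm was not tested. The 7 pinealocyte markers of 9 present summed to 12203 to 14669 CPM at CT4, 24045 to 28512 at CT8, 31008 to 32018 at CT16 and 25525 to 30383 at CT20. TPH1 made up most of this sum, with 8793 ± 1294 CPM at CT4 and 27932 ± 413 at CT16 (SD, n = 3). The rise of the sum is therefore mainly that of TPH1 and does not describe the other pinealocyte markers. The part of pinealocyte number or state in the GNB3 rhythm was not tested. Without the 3 pineal libraries low in TTR, an alternative chosen after seeing the data, the pineal amplitude of GNB3 was 1.52. This left replicate 2 as the only library at CT12. CT12 lies near the middle of the fitted curve, so libraries left out there could change the amplitude little.

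GNB1 is the beta subunit that mammalian rods share with many other cell types. It lies on chromosome 21 and was represented by 4 overlapping transcripts: GNB1-203 (ENSGALT00000002040, 1930097 to 1941798), GNB1-202 (ENSGALT00000040373, 1908027 to 1940725), GNB1-201 (ENSGALT00000040376, 1907993 to 1941795) and GNB1-204 (ENSGALT00000040371, 1930135 to 1940766). The authors' estimation divides reads among them, so the division is less certain than the sum. GNB1-203 made up 75.0 ± 2.03% of GNB1 FPKM in the pineal gland and 77.3 ± 1.91% in the retina (SD, n = 18). GNB1-202 made up 12.1 ± 1.43% and 10.5 ± 1.13%, GNB1-201 12.1 ± 2.48% and 11.1 ± 1.44%, and GNB1-204 0.780 ± 1.25% and 1.10 ± 1.19% (pineal gland, then retina, SD, n = 18). GNB1-203 was the main transcript of the gene in both tissues.

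GNB1-203 had a shallow rhythm in both tissues, earlier in the retina than in the pineal gland. The 3 pineal libraries held 468, 477 and 468 CPM at CT0, 486, 509 and 489.9 at CT4, and 559, 531 and 559.9 at CT8. They held 633, 641 and 670.2 CPM at CT12, 605, 617 and 654 at CT16, and 569.8, 526 and 518 at CT20. The mean was highest at CT12 (648 ± 19.7 CPM) and CT16 (625 ± 25.6 CPM) and lowest at CT0 (471 ± 5.44 CPM, SD, n = 3). The amplitude was 0.24 ± 0.02 (log2, SE) with a peak at CT13.53 ± 0.28 h (SE, adjusted p = 2.4e-07, edgeR). The range from trough to peak was 1.39-fold.

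In the retina GNB1-203 held 925, 939 and 1024 CPM at CT0, 1183, 1162 and 1027 at CT4, and 1401, 1275 and 1476 at CT8. It held 1175, 1345 and 1112 CPM at CT12, 1303, 968 and 1087 at CT16, and 997, 959.6 and 953 at CT20. The CT8 libraries were the highest as a group, but libraries of every pair of neighbouring times in order of level overlapped. The retinal amplitude was 0.25 ± 0.04 (log2, SE) with a peak at CT9.46 ± 0.67 h (SE, adjusted p = 0.00164, edgeR), a 1.41-fold range. The 24 h curves of the tissues differed (amplitude of the difference curve 0.24 on the log2 scale, adjusted p = 9.3e-04, edgeR interaction of tissue with time), with closely similar amplitudes and an earlier peak in the retina.

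Of the 4 GNB1 transcripts, GNB1-203 and GNB1-202 were called rhythmic in the pineal gland, where 21.1% of all transcripts tested were called, and GNB1-203 and GNB1-201 in the retina, where 6.29% were called. GNB1-202 peaked at CT12.99 ± 0.84 h in the pineal gland, with an amplitude of 0.29 ± 0.06 (log2, SE, adjusted p = 0.00592, edgeR). Its means there ran from 50.6 ± 5.71 CPM at CT0 to 83.0 ± 5.02 at CT12 (SD, n = 3). In the retina the amplitude of GNB1-202 was 0.15 ± 0.05 (log2, SE, adjusted p = 0.105, edgeR). GNB1-201 peaked at CT9.31 ± 0.74 h in the retina with an amplitude of 0.38 ± 0.07 (log2, SE, adjusted p = 0.00403, edgeR), its means running from 135 ± 23.9 CPM at CT0 to 231 ± 46.4 at CT8 (SD, n = 3). With time as a 6-level factor in place of the curve that call was lost (adjusted p = 0.0690, edgeR). The pineal amplitude of GNB1-201 was 0.10 ± 0.09 (log2, SE, adjusted p = 0.720, edgeR). A difference in rhythm between the tissues was called for 12.1% of all transcripts, but among the GNB1 transcripts for GNB1-203 only, with adjusted p of 0.368 for GNB1-202, 0.246 for GNB1-201 and 0.946 for GNB1-204 (edgeR).

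Summed over its transcripts, GNB1 kept the same picture. Its amplitude was 0.21 in the pineal gland (log2, adjusted p = 2.1e-07, edgeR) and 0.25 in the retina (adjusted p = 3.1e-05, edgeR), with a difference curve of amplitude 0.21 (adjusted p = 7.7e-04, edgeR). GNB1-204 was scarce, with no counts in 8 of the 18 pineal and 3 of the 18 retinal libraries and at most 185 and 261 estimated counts in the others. Its rhythm passed no test (adjusted p = 0.958 in the pineal gland and 0.685 in the retina, edgeR). 

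**Figure D2:**
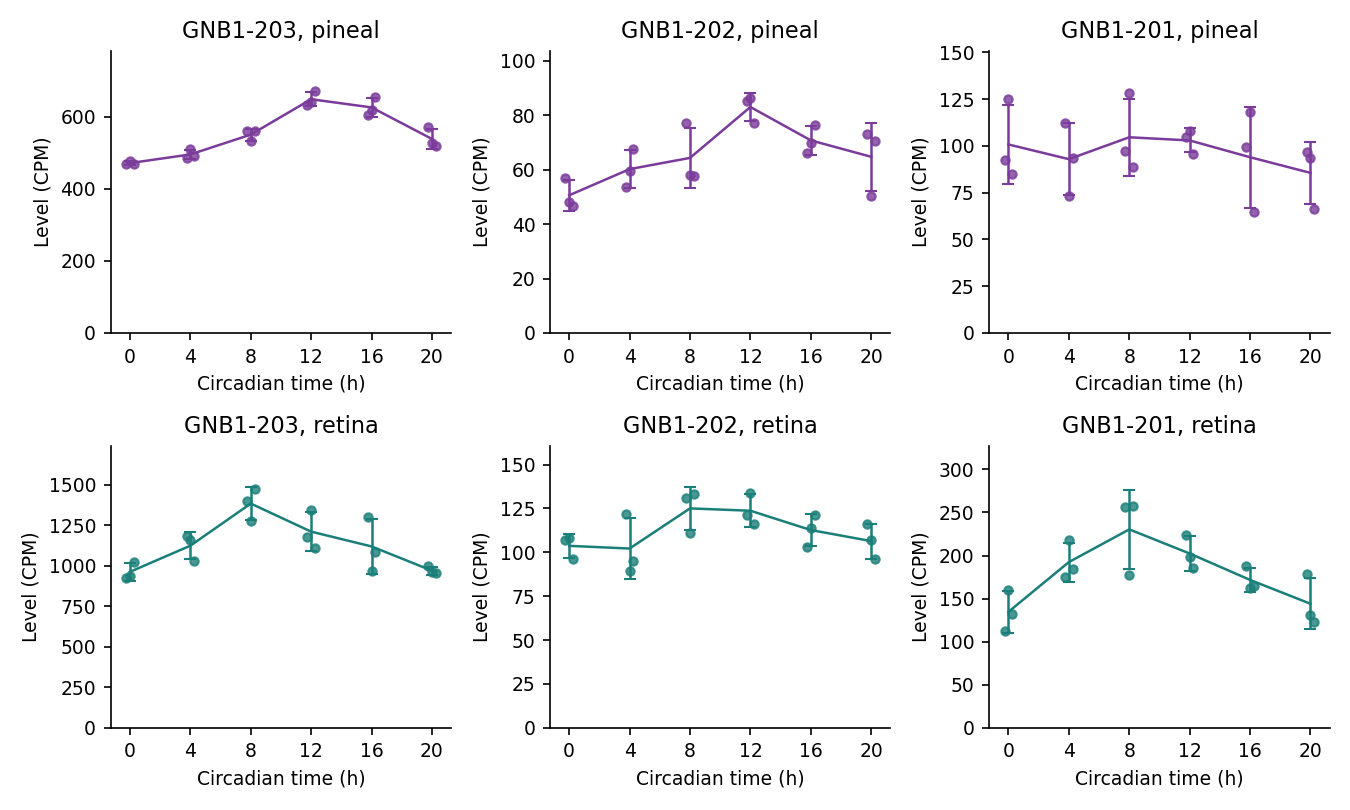
Levels of GNB1-203, GNB1-202 and GNB1-201 in CPM (y axes from 0, each panel on its own scale) against circadian time in hours in the pineal gland (top row) and the retina (bottom row). Points are libraries and lines with bars are the mean ± SD of 3 libraries. GNB1-203 is highest at CT12 in the pineal gland (648 CPM) and at CT8 in the retina (1384 CPM).

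The night-minus-day contrast (CT16 and CT20 against CT4 and CT8) put signs on these curves. In the pineal gland 15.0% of all transcripts were called and 8.36% were called higher at night. There GNB1-203 was 1.12-fold higher at night (log2 difference 0.16 ± 0.03, SE, adjusted p = 0.00356, edgeR), though its night and day libraries overlapped. Limma on log2(FPKM + 1) gave 0.13 with an adjusted p of 0.0683, which ended that call. In the retina, where 0.762% of all transcripts were called, the GNB1-203 difference was -0.26 ± 0.07 (log2, SE, adjusted p = 0.124, edgeR), and its night and day libraries overlapped. Leaving out retina CT16 replicate 1, the night library with the highest level, gave -0.33 with an adjusted p of 0.0203. None of the other GNB1 transcripts passed this test in either tissue, with adjusted p of 0.454 and 0.917 for GNB1-202, 0.655 and 0.160 for GNB1-201, and 0.880 and 0.895 for GNB1-204 (edgeR, pineal gland and retina). With DESeq2 the retinal difference of GNB1-201 became a call (-0.43, adjusted p = 0.0142).

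Averaged over the day, the GNB1 transcripts were lower in the pineal gland than in the retina, by far less than GNB3. GNB1-203 was 2.03-fold lower (log2 difference -1.02 ± 0.03, SE, adjusted p = 9.5e-22, edgeR), and all 18 pineal libraries (468 to 670.2 CPM, median 545) lay below all 18 retinal ones (925 to 1476 CPM, median 1099). GNB1-202 was 1.72-fold lower (-0.79 ± 0.05, adjusted p = 1.2e-13, edgeR), again with all 18 pineal libraries below all retinal ones. Such a separation was shown by 20.3% of all transcripts tested. GNB1-201 was 1.82-fold lower (-0.87 ± 0.08, adjusted p = 2.1e-10, edgeR), with 14 of 18 pineal libraries below the lowest retinal library. For GNB1-204 the log2 difference was -1.71 ± 0.75 (SE, adjusted p = 0.0376, edgeR), and that call was lost in 13 of the 36 refits that each left out 1 library (adjusted p between 0.00472 and 0.0653 over the 36). All 5 transcripts were therefore called lower in the pineal gland, a direction called for 39.5% of all transcripts.

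Because levels of different genes can be compared only per length, the makeup of the GNB1 plus GNB3 pool was computed from FPKM summed per gene. In the retina GNB3 was the larger part at all times, with GNB1 at 30.5 ± 2.59% of the pool (SD, n = 18, 26.6% to 36.1%). In the pineal gland GNB1 was the larger part at all times, at 77.8 ± 12.0% (SD, n = 18, 61.3% to 91.4%). The difference of 47.3 percentage points had p = 2.0e-05 in a two-sided permutation test with 100000 resamples, the smallest p these can give, and no library of one tissue fell in the range of the other. It was the single share that could be tested. The resamples did not take circadian time into account. The share is computed from levels of the same genes whose tissue differences are given above, so it is not independent of them.

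The pineal pool changed its makeup over the day. GNB3 was 9.16 ± 0.546% of it at CT4 and 9.65 ± 0.788% at CT8, 16.7 ± 3.62% at CT12, 36.1 ± 1.65% at CT16, 37.9 ± 0.690% at CT20 and 23.5 ± 1.37% at CT0 (SD, n = 3). These percentages follow from the GNB3 rhythm for which the gene was chosen and are a description. In FPKM, pineal GNB3 was 29.6 ± 1.99 at CT4 beside 294 ± 7.14 of GNB1, and 187 ± 11.7 at CT20 beside 306 ± 23.2 of GNB1 (SD, n = 3). In the retina the GNB3 share stayed between 66.1 ± 2.07% at CT8, when GNB1 was at its highest, and 73.0 ± 0.587% at CT20 (SD, n = 3).

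**Figure D3:**
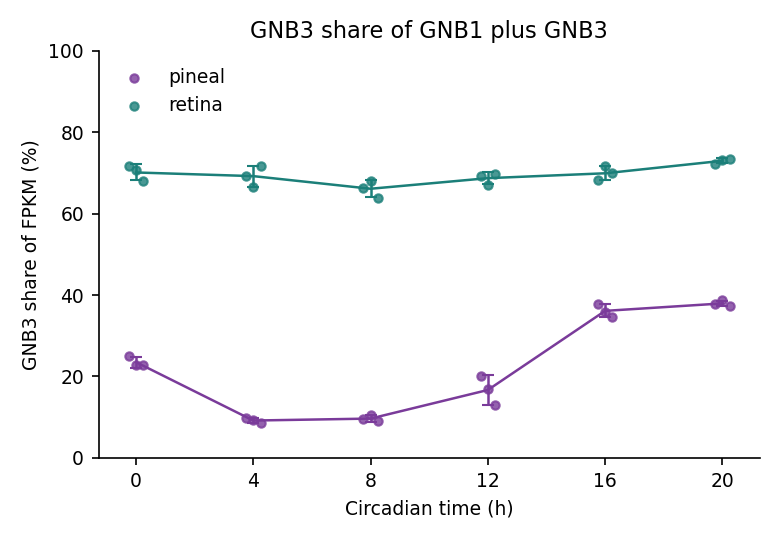
GNB3 share of the FPKM of GNB1 plus GNB3 (%, y axis from 0) against circadian time in hours in the pineal gland and the retina. Points are libraries and lines with bars are the mean ± SD of 3 libraries. The pineal share runs from 9.16% at CT4 to 37.9% at CT20, and the retinal share stays between 66.1% and 73.0%.

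Each gene of the lists below was taken as its most counted transcript. Of all transcripts called rhythmic, 56.7% peaked in the subjective night (from CT12) in the pineal gland and 43.6% in the retina. Upstream of transducin, 9 of 16 listed opsin names were in the table. Of the 7 opsins tested in the pineal gland 5 were called rhythmic, with 3 peaks in the subjective day (before CT12) and 2 in the subjective night, and in the retina 3 of 9, beside 21.1% and 6.29% of all transcripts. The median amplitude was 0.39 in the pineal gland and 0.18 in the retina (log2), beside 0.14 and 0.09 over all transcripts tested. Pinopsin (OPNP), the pigment of chicken pinealocytes, had a mean of 569 ± 134 CPM in the pineal gland (SD, n = 18), lowest at CT0 and highest at CT12. It peaked at CT10.78 with an amplitude of 0.45 ± 0.05 (log2, SE, adjusted p = 1.9e-05, edgeR), so that the pigment and GNB3 were high at different times. Melanopsin (OPN4), a pigment that is not thought to use transducin, peaked in the pineal gland at CT11.22 with an amplitude of 0.76 ± 0.07 (log2, SE, adjusted p = 7.3e-07, edgeR). Its retinal amplitude was 0.32 ± 0.06 (adjusted p = 0.00388), and the curves of the tissues differed (adjusted p = 0.00123, edgeR). RGR, an opsin that isomerises retinal, peaked in the pineal gland at CT6.99 with an amplitude of 0.30 ± 0.03 (adjusted p = 1.4e-05, edgeR). Among visual pigments, the green cone opsin OPN1MSW had an amplitude of 0.51 ± 0.09 in the retina with a peak at CT11.70 (adjusted p = 0.00290, edgeR) and was at a mean of 0.744 CPM in the pineal gland. OPN3 (encephalopsin) peaked in the retina at CT1.90 with an amplitude of 0.28 ± 0.06 (adjusted p = 0.0181, edgeR), a call lost with time as a 6-level factor (adjusted p = 0.160).

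Downstream, 8 of 9 listed phosphodiesterase and channel subunits were in the table, and 7 of these were called rhythmic in the pineal gland and 8 in the retina, beside 21.1% and 6.29% of all transcripts. The median amplitude was 0.78 and 0.59 (log2) in turn, beside 0.14 and 0.09 over all transcripts tested. The curves of the tissues differed for 6 of the 8, beside 12.1% of all transcripts. PDE6C, the catalytic subunit of the cone phosphodiesterase, followed the night side as GNB3 did in the pineal gland, with 9.64 ± 1.46 CPM at CT8 and 47.0 ± 4.92 at CT20 (SD, n = 3). Its amplitude was 0.96 ± 0.13 with a peak at CT20.15 in the pineal gland (adjusted p = 3.1e-05) and 0.41 ± 0.04 with a peak at CT22.63 in the retina (adjusted p = 2.2e-06, edgeR). CNGB3, a cone channel subunit, ran opposite to GNB3, from 33.0 ± 3.01 CPM at CT16 to 110.4 ± 14.5 at CT4 in the pineal gland (SD, n = 3, amplitude 0.82 ± 0.09, peak at CT5.00, adjusted p = 7.8e-06, edgeR). Its partner CNGA3 was rhythmic in the retina (amplitude 0.72 ± 0.04, peak at CT0.33, adjusted p = 1.5e-08, edgeR), while in the pineal gland the amplitude was 0.12 ± 0.04 (adjusted p = 0.0750, edgeR, and 0.0385 and 0.0200 without pineal CT0 replicate 1 or pineal CT20 replicate 1). The rod channel subunit CNGB1 had the same amplitude of 0.75 in both tissues and peaked at CT13.41 in the pineal gland and CT12.76 in the retina (adjusted p = 4.8e-07 and 2.4e-06, edgeR). The rod phosphodiesterase subunit PDE6B peaked near dawn in both, at CT1.57 and CT0.85, with amplitudes of 0.97 ± 0.13 and 1.28 ± 0.11 (adjusted p = 1.5e-05 and 4.3e-07, edgeR). PDE6H, the inhibitory cone subunit, had time means of 3.26 to 7.56 CPM in the pineal gland and 624 to 883 in the retina for its most counted transcript. Summed over its transcripts, PDE6H was at 3.52 to 14.4 CPM in the pineal libraries and 973 to 1432 in the retinal ones.

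Of 16 listed proteins that bind transducin or shut the pathway off, 15 were in the table and 14 were tested in the pineal gland. There 9 were called rhythmic, 8 of them with a peak in the subjective night, while in the retina 7 of 15 were called, 1 of them with such a peak. Over all transcripts 21.1% and 6.29% were called, of which 56.7% and 43.6% peaked in the night, and whether the list's split differed between the tissues was not tested. Phosducin (PDC), which holds the transducin beta-gamma pair, was rhythmic in the pineal gland and was not called in the retina. Its pineal level was 63.7 ± 9.12 CPM at CT0 and 174 ± 10.2 at CT16 (SD, n = 3). The pineal amplitude was 0.73 ± 0.08 with a peak at CT15.79 (adjusted p = 7.6e-06), the retinal amplitude 0.03 ± 0.02 (adjusted p = 0.704), and the curves differed (adjusted p = 1.8e-07, edgeR). PDC was also 2.64 lower on the log2 scale in the pineal gland (tissue difference -2.64 ± 0.04, SE, adjusted p = 5.0e-30, edgeR).

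PPEF2, a protein phosphatase of photoreceptors, had the largest pineal amplitude of the named pathway genes, 2.12 ± 0.09 (log2, SE, adjusted p = 1.1e-10, edgeR), from 13.2 ± 2.02 CPM at CT0 to 233 ± 26.6 at CT12 (SD, n = 3). It was rhythmic in the retina too, with an amplitude of 0.97 ± 0.08 and a peak at CT10.92 (adjusted p = 5.4e-07, edgeR). Cone arrestin (ARR3) peaked near dawn in both tissues, at CT0.64 and CT1.48, with amplitudes of 1.06 ± 0.11 and 0.82 ± 0.03 (adjusted p = 3.2e-06 and 1.5e-11, edgeR), at 6.04 ± 3.40 CPM in the pineal gland against 917 ± 374 in the retina (SD, n = 18). The cone opsin kinase GRK7 peaked at CT21.15 in the pineal gland (amplitude 0.40 ± 0.10, adjusted p = 0.0171) and CT0.90 in the retina (0.74 ± 0.05, adjusted p = 1.5e-08, edgeR). The pineal call for GRK7 was lost without pineal CT20 replicate 3 (adjusted p = 0.0554, edgeR) and with time as a 6-level factor (adjusted p = 0.0759, edgeR). RGS9, which speeds GTP hydrolysis by the alpha subunit, was rhythmic in the retina (0.49 ± 0.03, peak at CT1.61, adjusted p = 1.5e-08, edgeR) but not called in the pineal gland (0.04 ± 0.08, adjusted p = 0.895, edgeR). Its partner GNB5, a divergent beta subunit, had a retinal amplitude of 0.13 ± 0.02 (adjusted p = 1.5e-04) and a pineal one of 0.06 ± 0.03 (adjusted p = 0.336, edgeR). Rod arrestin (SAG) was at 2.10 ± 0.778 CPM in the pineal gland and 643 ± 164 in the retina (SD, n = 18).

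Of 12 listed genes of calcium feedback 7 were in the table, and 2 of the 5 tested were called rhythmic in the pineal gland and 5 of 7 in the retina, all with peaks in the subjective day. Over all transcripts 21.1% and 6.29% were called, of which 43.3% and 56.4% peaked in the day. The pineal call for GUCA1C, at a mean of 0.749 CPM, was lost with time as a 6-level factor (adjusted p = 0.0744), with limma on log2(FPKM + 0.1) (0.0518), without the 3 libraries low in TTR (0.0787) and without pineal CT0 replicate 1 or 3 (0.0729 and 0.0511). The exchanger SLC24A2 peaked at CT9.38 in the pineal gland and CT0.32 in the retina (amplitude 0.33 ± 0.05 and 0.41 ± 0.03, adjusted p = 2.4e-04 and 2.9e-07, edgeR). The cyclase activators GUCA1A, GUCA1B and GUCA1C and the rod exchanger SLC24A1 were at means of 0.288 to 2.17 CPM in the pineal gland and 69.8 to 415 in the retina.

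**Figure D4:**
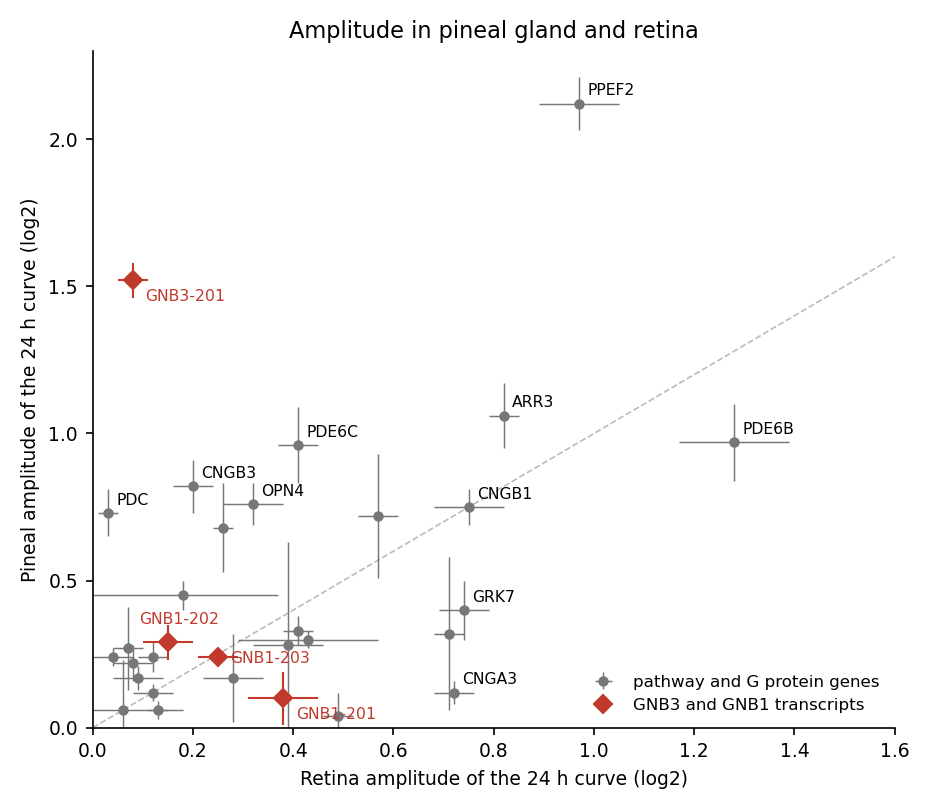
Amplitude of the fitted 24 h curve (log2 CPM, mean to peak) in the pineal gland (y axis) against the retina (x axis), with SE bars. Diamonds are GNB3 and GNB1 transcripts, circles are named genes of the pathway and other G protein subunits tested in both tissues, and the dashed line marks equal amplitudes. GNB3 (1.52 against 0.08) and PDC (0.73 against 0.03) lie near the left edge, and GNB1-203 (0.24 against 0.25) lies on the line.

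The other heterotrimeric G protein subunits were described in the same way. Of 11 other alpha subunits tested in each tissue, 2 were called rhythmic in the pineal gland and 0 in the retina, beside 21.1% and 6.29% of all transcripts, with a median amplitude of 0.11 and 0.07 (log2) beside 0.14 and 0.09. Both counts are near the background and are no result about the alpha subunits. In the pineal gland GNAI1 peaked at CT6.60 (amplitude 0.17 ± 0.04, adjusted p = 0.0225, edgeR) and GNAL at CT22.19 (0.22 ± 0.06, adjusted p = 0.0386, edgeR). Leaving out pineal CT8 replicate 2 or 3 ended the GNAI1 call (adjusted p = 0.0504 and 0.0603), and 9 of the 18 libraries ended the GNAL call when left out singly. Both calls were also lost with time as a 6-level factor (adjusted p = 0.0611 for GNAI1 and 0.192 for GNAL, edgeR). Among 3 other beta subunits and beta-like proteins tested, GNB1L was called rhythmic in the pineal gland (0.12 ± 0.03, adjusted p = 0.0139, edgeR) and GNB5 in the retina. That is 1 of 3 in each tissue, beside 21.1% and 6.29% of all transcripts, and 3 are too few for a result about the beta subunits. Without the 3 pineal libraries low in TTR the GNB1L call was lost (adjusted p = 0.102). Among 7 gamma subunits tested in the pineal gland, GNG2 and GNG13 were called rhythmic, and both peaked in the subjective night. Over all transcripts 21.1% were called there, of which 56.7% peaked in the night. In the retina 2 of 5 gamma subunits were called, beside 6.29% of all transcripts. The pineal count is near the share of all transcripts and is no result about the gamma subunits. GNG2 rose from 217 ± 4.44 CPM at CT4 to 306 ± 16.1 at CT20 (SD, n = 3), with a peak at CT17.13 and an amplitude of 0.24 ± 0.03 (log2, SE, adjusted p = 1.2e-05, edgeR). In the retina its amplitude was 0.04 ± 0.04 (adjusted p = 0.806), and the curves of the tissues differed (adjusted p = 0.00980, edgeR), a call lost with limma on log2(FPKM + 1) (adjusted p = 0.0510). GNG2 was higher in the pineal gland by 1.90 ± 0.03 (log2, SE, adjusted p = 8.3e-28, edgeR), opposite to GNB3. GNG13 peaked at CT17.78 in the pineal gland (0.24 ± 0.05, adjusted p = 0.00164) and CT13.42 in the retina (0.12 ± 0.03, adjusted p = 0.0350, edgeR), and the retinal call was lost when any of 8 of the 18 libraries was left out. GNG11 was called rhythmic in the retina, with an amplitude of 0.39 ± 0.07 (adjusted p = 0.00169, edgeR), but not in a fit of both tissues together (adjusted p = 0.646).

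The transcripts most like GNB3 were ranked by the Pearson correlation of log2 CPM, centred within each tissue, over the 36 libraries. The ranking covered 12772 transcripts with a deposited gene name and a mean of at least 1 CPM in each tissue. All points share these libraries and their scaling, and the pineal cycle supplies most of the variation, so the correlations are a description. The closest were FANCM (r = 0.918), CHST11 (r = 0.894), DSCAM (r = 0.889), FGF1 (r = 0.875) and SHROOM1 (r = 0.865). In the pineal gland all 5 were lowest at CT4, and 4 of them were highest at CT16 and FGF1 at CT20. The low and high times of these transcripts and of the most opposite ones below follow largely from the ranking itself. FANCM, a DNA translocase of the Fanconi anaemia pathway, went from 109 ± 4.05 CPM at CT4 to 308 ± 11.5 at CT16 (SD, n = 3), with a peak at CT17.21. The growth factor FGF1 went from 0.917 ± 0.627 CPM at CT4 to 6.14 ± 1.17 at CT20 (SD, n = 3), and its amplitude of 1.41 ± 0.18 (log2, SE) was the nearest of the 5 to that of GNB3. In the retina the amplitudes of the 5 were 0.00 to 0.08. The most opposite were GAPDH (r = -0.893), NCBP2 (r = -0.867) and CNGB3 (r = -0.852), which were highest in the pineal gland at CT4. GNB1-203 had r = 0.236 over the 36 libraries of both tissues and ranked 2619, so it was not among the closest transcripts in this ranking.

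Within 50 kb of GNB3 the table held 12 transcripts of 9 genes, none of which overlapped it. Of the 11 tested in the pineal gland 2 were called rhythmic, ENO2 and the unnamed transcript ENSGALT00000023425, a share near the 21.1% of all transcripts. ENSGALT00000023425 starts 845 bases beyond the end of GNB3 and had a mean of 8.51 CPM in the pineal gland, an amplitude of 0.37 ± 0.08 (log2, SE) and a peak at CT18.30 (adjusted p = 0.0108, edgeR), close to the time of GNB3. ENO2, a neuronal enolase 33897 bases away, peaked at CT14.89 with an amplitude of 0.88 ± 0.13 (log2, SE, adjusted p = 3.3e-04, edgeR) and was at a mean of 117 CPM in the pineal gland and 4266 in the retina. In the retina ENO2 had an amplitude of 0.11 ± 0.02 (log2, SE, adjusted p = 0.00125, edgeR), a call lost with both tissues in 1 fit (adjusted p = 0.877). The neighbours between them, USP5, TPI1 and LRRC23, had pineal amplitudes of 0.03 ± 0.03, 0.02 ± 0.02 and 0.19 ± 0.13 (log2, SE, adjusted p = 0.728, 0.792 and 0.626, edgeR). On the other side LEPREL2, GPR162, CD4 and LAG3 passed no rhythm test in the pineal gland.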

How the data were processed

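Libraries from 18 pineal and 18 retinal samples were measured by RNA-seq. TRIzol extraction, an RNeasy clean-up and Illumina library preparation were used, per the labels' protocols. Trimmomatic, TopHat and Cufflinks are named, per the submitters' processing notes. The genome build and strand setting are not given in the sources used here. The authors deposited estimated counts per Ensembl transcript, which need not be whole, and FPKM values for the same transcripts. Estimated counts were rounded and tested in edgeR 4.0.16 (R 4.3.3) with TMM scaling and filterByExpr; deposited FPKM served for the GNB1 share (Python, scipy 1.17.1) and for limma 3.58.1 as an alternative with pseudocounts of 0.1 and 1.

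Rhythm was tested as a cosine and a sine of a 24 h period in each tissue, and their interaction with tissue over all 36 libraries. Amplitude and peak come from least squares on log2 CPM with a prior count of 2. The tissue and night contrasts used a mean per time. Named genes were all members, the 5 transcripts most like GNB3 and the 3 most opposite, all transcripts within 50 kb, and, from each of 7 pathway and G protein lists, up to 3 called rhythmic genes of smallest p per tissue and the 2 with the largest tissue difference. The members and lists were chosen with earlier results of these data known. List names were read through RefSeq identifiers where a row had one (6264 of 6768 matched the RefSeq gene table), otherwise as deposited. Alternatives were DESeq2 1.42.0, edgeR with relative log expression scaling in place of TMM, no filter and counts summed per gene. The others were a replicate block, time as a factor, both tissues in 1 fit, a wider night and each library left out. The scripts were tested on simulated data. Deviations of same-numbered libraries correlated at r = -0.069 to 0.261 in the pineal gland (median 0.003; differently numbered ones -0.212 to 0.09), -0.052 to 0.054 in the retina and -0.036 to 0.041 between tissues. Not every pair was over 0.1, so the numbers were not taken as pairs. Replicate pairs differed by 4.64 to 29.95 times the chi-square per degree of freedom of sampling noise, so no library was counted as a duplicate. Results for 1 gene, and the marker sum that holds it, are not reported here.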

Additional observations from a re-analysis of the deposited data

Results flagged for a closer look

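The results below are flagged because the 24 h curve differed between the pineal gland and the retina in the interaction test of edgeR with Benjamini-Hochberg adjustment over all transcripts, where 12.1% were called. Only the members and the genes named from the lists were eligible, so other called list genes are absent. The value for each is the amplitude of the difference curve on the log2 scale. Among the members, GNB1-203 had 0.24 (adjusted p = 9.3e-04, edgeR). GNB3 was chosen by this contrast and is not flagged.

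Of the 9 opsins tested 3 were called, of which only OPN4 is among the named genes, with 0.46 (adjusted p = 0.00123, edgeR). Of the 8 transducin targets and channels tested 6 were called. Among those named, CNGB3 had 0.78 (adjusted p = 2.6e-06), CNGA3 0.61 (1.3e-08), PDE6C 0.68 (2.0e-04) and PDE6H 0.43 (0.00974, edgeR). CNGB3 had the larger amplitude in the pineal gland (0.82 against 0.20), whereas CNGA3 had it in the retina (0.72 against 0.12).

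Of the 15 listed proteins tested that bind transducin or end the response, 9 were called. Among those named, PPEF2 had 1.27 (adjusted p = 1.3e-08), PDC 0.74 (1.8e-07), GRK7 0.61 (1.3e-04), RGS9 0.52 (8.8e-05) and ARR3 0.31 (0.0181, edgeR). GNB5, the partner of RGS9, had 0.13 (adjusted p = 0.0296, edgeR). The exchanger SLC24A2 had 0.69 (adjusted p = 8.9e-10, edgeR), with similar amplitudes in the tissues but peaks at CT9.38 and CT0.32. Of the gamma subunits, GNG2 had 0.20 (adjusted p = 0.00980) and GNG13 0.22 (0.0154, edgeR).

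The calls for ARR3, PDE6H, GNB5 and GNG2 were lost with limma on log2(FPKM + 1), at adjusted p of 0.205, 0.114, 0.103 and 0.0510. Leaving out pineal CT0 replicate 3 also ended the call for ARR3 (adjusted p = 0.0525), and leaving out 1 of 4 pineal libraries that for GNB5 (CT0 replicate 2, CT8 replicate 1, CT12 replicates 1 and 2, adjusted p = 0.0572, 0.0506, 0.0559 and 0.0553).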

How the results depend on the processing

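The lower level of GNB3 in the pineal gland held under all 8 alternatives and all 36 single-library omissions (log2 -4.25 to -4.00). Its pineal amplitude stayed between 1.48 and 1.55. The amplitude was fitted apart from the test model, so a replicate block or time as a factor could not change it. With CT12 added to night and CT0 to day the pineal night-minus-day value of GNB3 was 1.71 against 2.64. The rhythm of GNB1-203 and its difference between tissues kept their calls under every alternative and omission run. Its night-minus-day call in the pineal gland was lost with limma on FPKM plus 0.1 or 1 (0.13, adjusted p = 0.0684 and 0.0683) and with both tissues in 1 fit (0.15, adjusted p = 0.0625). In the retina this contrast became a call at -0.26 with DESeq2, gene sums and both tissues in 1 fit (adjusted p = 0.0110, 0.0178 and 0.0153), and the omissions gave -0.33 to -0.22. Called transcripts went from 941 to 515 for the retinal rhythm with time as a factor. For the retinal night contrast 114 calls became 280 with DESeq2, 186 with gene sums and 370 with the wider night. The GNB1-204 tissue call was lost with DESeq2 (-1.70, adjusted p = 0.112) and without the libraries low in TTR (-1.36, adjusted p = 0.124). GNB1-202 became rhythmic in the retina with DESeq2 (adjusted p = 0.0265) and higher at night in the pineal gland with the wider night (0.33, adjusted p = 0.0125). The cause of these changes was not tested, and none of the called directions turned. The GNB1 share difference stayed between 46.5 and 48.3 points.

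The libraries were not treated as paired by replicate number in the main tests. With replicate number as a block GNB1-203 kept its pineal rhythm call (adjusted p = 1.6e-06, edgeR). The block does not enter the fit that gives the amplitude. In the pineal gland 3365 transcripts in place of 3393 were called rhythmic. Among the tests of the members, the named list genes and the neighbours of GNB3, the block changed 1 call, GNB1-204 between tissues (-1.63, adjusted p = 0.0568). The shares planned for GNAT1 with GNAT2 and GNGT1 with GNGT2 were not run, and low counts limit GNB1-204.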
